A study of Oryza sativa with 9 samples.

Results

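Seeds of the rice line P3MH, which carries the amino acid change A252T in the RNA-binding protein RBP-P, were compared with seeds of wild-type rice (Oryza sativa, WT). The comparison used 6 of the 9 RNA-seq libraries of the study, 3 biological repeats of each genotype, and the other 3 came from P1MH, a line with the RBP-P change G401S. All seeds were dehulled and developing, 10 to 14 days after flowering, from plants kept at 27 °C under 12 h of light and 12 h of dark. Every library was made from total RNA. Levels are given as RPKM, the reads of a locus divided by the length of its exons and by the depth of its library. Of 55986 loci, the 16064 whose mean over the 9 libraries was 1 RPKM or more were tested. The labels do not say how many plants gave each repeat, or whether a line was backcrossed.

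The developing rice grain fills its endosperm with starch and storage proteins. The main storage proteins are the glutelins, which are carried to the protein storage vacuole, and the prolamines, which form protein bodies inside the endoplasmic reticulum. Their messenger RNAs are moved to different parts of the endoplasmic reticulum before translation, and RBP-P, which holds RNA recognition motifs, binds the messenger RNAs of both kinds. Other RNA-binding proteins are known to work with it in this transport.

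The libraries held an estimated 6814570, 7498434 and 7083494 reads in WT and 6479755, 6062155 and 7379192 in P3MH, worked out from the steps between low RPKM values. The total taken was the smallest of those tried that put enough low values on whole reads. A locus with 1 kilobase of exon and 3 reads would show 0.40 to 0.51 RPKM over the 9 libraries. Among low values of loci with 1 exon, 23.2 to 25.4% lay midway between whole reads in the WT libraries against at most 0.332% in any mutant library. A larger WT total would put the midway values on whole reads, so the WT totals and read counts depend on the total taken. The difference in midway values runs with genotype, so reads may have been counted differently for WT and the mutants, and its part in the results was not tested. P1MH 3 stood apart from P1MH 1 and P1MH 2 at loci where P3MH had no reads. The total numbers of loci called in P1MH, and the overlap with P3MH, are given both with and without it. Other P1MH counts and means include it. Markers of the endosperm were at the highest summed level of the marker lists, 44984 to 45986 RPKM in WT and 52219 to 65461 RPKM in P3MH, and no marker of endosperm, embryo, green pericarp or aleurone was at 0 in all libraries of a genotype. In whole seeds, fewer cells of a type and less RNA per cell cannot be told apart.

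As deposited, the P3MH values were lower than WT for most loci by a small amount, with a median log2 fold change of -0.13 over all tested loci and quartiles of -0.31 and 0.06. limma at a false discovery rate of 0.05 called 766 loci (4.77% of those tested), 268 higher (1.67%) and 498 lower (3.1%). Of these, 158 were at least 2-fold higher (0.984%) and 259 at least 2-fold lower (1.61%). Median-ratio rescaling, which sets the typical locus of every library to the same level, divided the WT libraries by 1.05 to 1.09 and the P3MH libraries by 0.930 to 0.996 and moved the median to -0.01. After rescaling 724 loci were called (4.51%), 389 higher (2.42%) and 335 lower (2.09%), so that the higher calls made up 53.7% of all calls in place of 35.0%. All 268 higher calls stayed called after rescaling and 121 were added, while 332 of the 498 lower calls stayed (2.07% of loci tested) and 166 were lost. No locus was called in opposite directions. Libraries left out in turn moved the counts to between 128 (without WT 3) and 273 (without P3MH 3) loci higher and between 237 (without WT 3) and 402 (without P3MH 3) lower, as deposited.

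**Figure D1:**
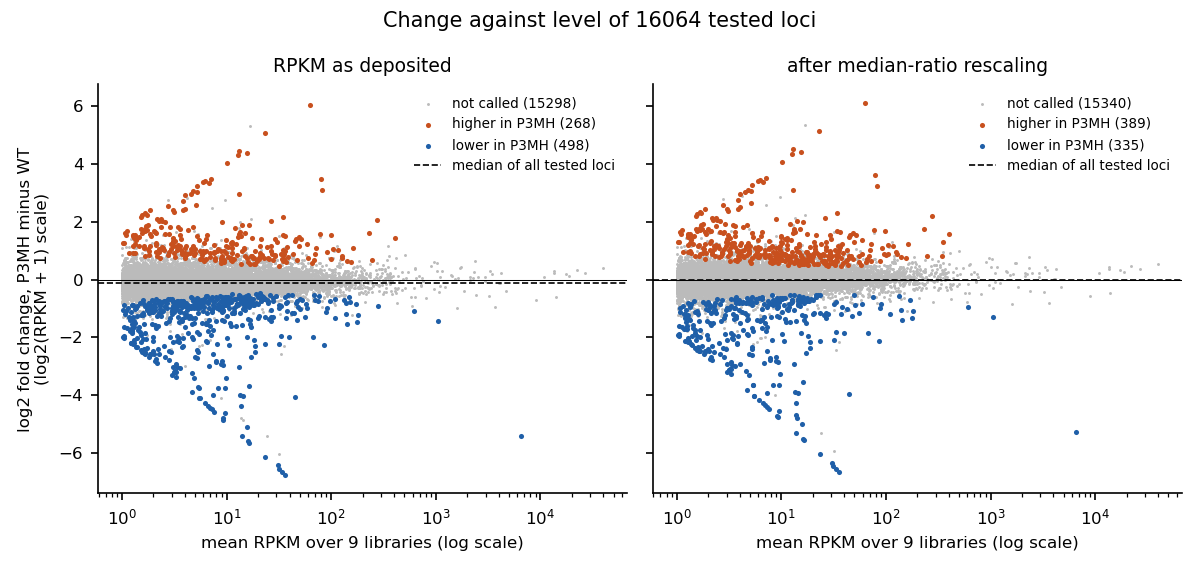
Log2 fold change of P3MH against WT on the log2(RPKM + 1) scale (vertical) for each of 16064 tested loci by mean RPKM over 9 libraries (horizontal, log scale), as deposited on the left and rescaled on the right. The dashed line is the median of all tested loci, -0.13 as deposited and -0.01 rescaled, and the lone blue point far to the right is LOC_Os05g26386.

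The share of loci called varied little with level, from 4.34 to 6.33% over the ranges of mean RPKM compared. The 50 loci of highest mean RPKM had a median log2 fold change of 0.08 as deposited and 0.22 rescaled.

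RBP-P itself (LOC_Os01g16090, chromosome 1, 9063968 to 9066787 in the deposited table, build not given) was at 16.2, 12.9 and 12.7 RPKM in WT and 8.71, 11.9 and 7.87 RPKM in P3MH. As deposited, the highest P3MH library lay below the lowest WT library, as it did for 20.6% of all tested loci. After rescaling the groups overlapped. The means of 13.9 ± 1.94 (SD, n = 3) and 9.50 ± 2.14 RPKM gave a log2 fold change of -0.52 (SE 0.19), which missed the threshold (limma adjusted p = 0.151 as deposited and 0.333 rescaled). An amino acid change need not alter the level of its own transcript, so this value does not check the genotype labels.

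Glutelins, the main storage proteins of the grain, held a larger share of all RPKM in P3MH than in WT. The 12 listed glutelin loci held 27.9, 27.2 and 26.5% of all RPKM in WT and 34.4, 32.4 and 35.8% in P3MH. In P1MH they held 34.1, 35.5 and 36.2%, so both mutant lines lay above WT. WT also differed from both lines in its midway values, and the part of a different way of counting was not tested. All P3MH libraries lay above all WT libraries, with means of 27.2 ± 0.684% and 34.2 ± 1.71% (SD, n = 3) and a difference of 6.96 percentage points that stayed between 6.16 and 7.86 with any of the 6 libraries left out. Locus by locus the shift was small against the spread: all 12 log2 fold changes were above 0 in either scaling, but limma called 1 of 12 higher and 0 lower. The median log2 fold change of the list was 0.24 as deposited and 0.38 rescaled, against -0.13 and -0.01 for all tested loci. As deposited, the P3MH libraries lay above all WT libraries in 4 of the 12, where 6.97% of all tested loci did.

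The glutelin that was called, a locus with no checked name, was at 191, 185 and 163 RPKM in WT and 353, 263 and 265 RPKM in P3MH (log2 change of 0.69 with SE 0.17, adjusted p by limma = 0.034). Its call was lost without P3MH 1, P3MH 2 or any of the WT libraries (adjusted p 0.0557 to 0.142). The most abundant named members were far above it. GluA-3 had 23797, 24836 and 21061 RPKM in WT and 26601, 28260 and 27494 RPKM in P3MH, with a log2 fold change of 0.24 (limma adjusted p = 0.496). GluB-5 had 19003, 18310 and 17569 RPKM in WT and 23415, 23369 and 22694 RPKM in P3MH, with a log2 fold change of 0.34 (limma adjusted p = 0.314). The P3MH libraries did not overlap WT for either gene, yet neither passed the test over all loci. Glutelin genes are close copies of each other, and how the counting shared reads between copies is not given in the sources used here.

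The loci listed as prolamines, globulin and seed allergens, 24 of them tested, held loci that rose and loci that fell. limma called 2 higher and 4 lower in either scaling, where 1.67 and 3.1% of all tested loci were called as deposited and 2.42 and 2.09% rescaled. The median log2 fold change was -0.14 as deposited and -0.01 rescaled, close to that of all tested loci. Together they held 7.08, 12.7 and 10.7% of all RPKM in WT and 5.55, 5.88 and 6.09% in P3MH. The groups did not overlap, but WT 1 stood apart from the other WT libraries, and the mean difference of -4.30 percentage points was -5.84 without WT 1 and -3.04 without WT 2.

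Much of that difference came from LOC_Os05g26386, a member of the list with no checked name (chromosome 5, 15338155 to 15338822), named here after its values were seen and also among the 15 loci of largest fall. It had 8141, 26617 and 21534 RPKM in WT and 132, 593 and 775 RPKM in P3MH. Its share of all RPKM was 3.40 ± 1.67% in WT and 0.0954 ± 0.0639% in P3MH (SD, n = 3), and its log2 fold change came to -5.41 (SE 0.86, adjusted p by limma = 0.011 as deposited and 0.0073 rescaled). The call rested on WT 2 and WT 3: the adjusted p was 0.0516 without WT 2 and 0.0657 without WT 3. Without this locus the list held 6.74 ± 1.19% in WT and 5.75 ± 0.209% in P3MH, and the libraries overlapped. In P1MH its mean was 321 RPKM.

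LOC_Os07g11510, another member with no checked name and chosen after its values were seen, fell from 1553, 1935 and 1580 RPKM in WT to 797, 581 and 512 RPKM in P3MH. Its log2 fold change came to -1.44 (SE 0.21, adjusted p by limma = 0.00101), and the call stayed with any of the 6 libraries left out. The other 2 that fell are unnamed loci of low level, with mean RPKM of 15.4 in WT and 3.57 in P3MH for one and 22.7 and 6.76 for the other, whose call was lost without P3MH 2, P3MH 3, WT 2 or WT 3 (adjusted p 0.0594 to 0.0863). An unnamed locus on the same stretch of chromosome 5 rose, with 35.2, 124 and 108 RPKM in WT and 360, 384 and 256 RPKM in P3MH (log2 change of 2.06, adjusted p by limma = 0.044), and its call was lost without P3MH 1, P3MH 2, P3MH 3 or WT 3 (adjusted p 0.0674 to 0.136). PROLM25, a prolamine, had 2964, 3591 and 3273 RPKM in WT and 3273, 2162 and 3826 RPKM in P3MH, and the groups overlapped.

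**Figure D2:**
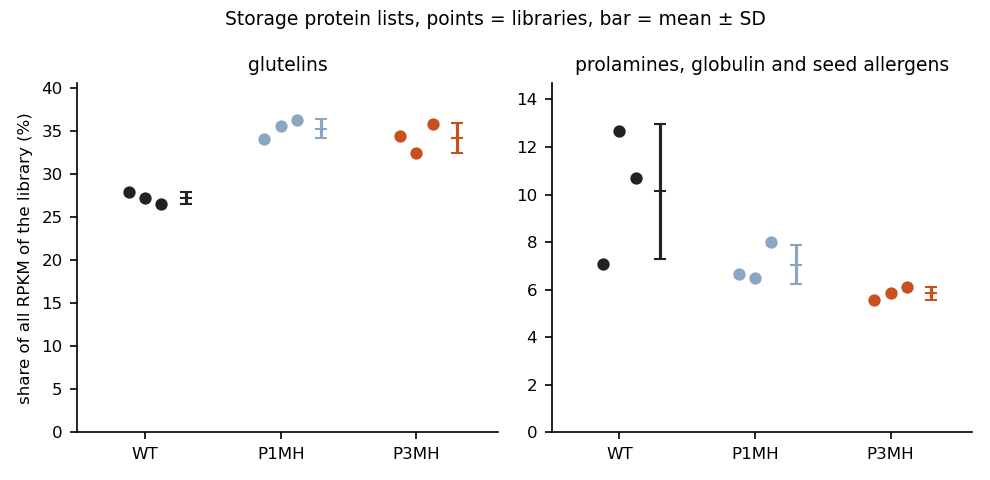
Share of all RPKM of a library (percent, vertical) held by the glutelin loci (left) and by the prolamine, globulin and seed allergen loci (right), with a point per library and a bar for the mean ± SD of 3 libraries. The glutelin share is 27.2% in WT and 34.2% in P3MH, and the other list's share is 10.1% and 5.84%.

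RAG1, a seed allergen gene of the same list, rose the most of all called loci. It had 0.287, 0.0869 and 0.276 RPKM in WT and 77.1, 101.1 and 64 RPKM in P3MH. These are 1215 reads in P3MH against 4 in WT after rounding, a ratio per library depth of 326 (95% interval 127 to 1199, covering counting error only). The WT values lay midway between whole reads and their sum was rounded to a whole number, so the ratio and interval are approximate. Its log2 fold change came to 6.05 (SE 0.19, adjusted p by limma = 3.08e-10 as deposited and 2.59e-09 rescaled), and its mean in P1MH was 109 RPKM. Many loci of this list lie near one another, and how reads were shared between them was not tested.

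A checked name could be given to 1464 of the tested loci, and 19 of these were called higher and 37 lower as deposited. After rescaling the same 19 and 11 more were called higher, while 19 of the 37 were still called lower. The genes described next are all called loci with a checked name, grouped by what they are known to do after their values were seen. Of the 19 higher genes, 7 stayed called whichever of the 6 libraries was left out: RAG1, PPDK2, MSRB1, GER2, ARD, HSFA2C and CBP3. The others lost their call in at least 1 of these fits, 9 without P3MH 1, 9 without P3MH 2, 6 without P3MH 3, 8 without WT 1, 9 without WT 2 and 10 without WT 3, with adjusted p up to 0.182.

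PPDK2, a pyruvate orthophosphate dikinase, which interconverts pyruvate and phosphoenolpyruvate, had 8.61, 7.54 and 5.67 RPKM in WT and 28.4, 31.2 and 37.7 RPKM in P3MH. The groups stood well apart, at 7.28 ± 1.49 and 32.4 ± 4.78 RPKM (SD, n = 3), with a log2 fold change of 2.02 (SE 0.27, adjusted p by limma = 0.0011). The more abundant family member of the endosperm, PPDKB, did not share the change, with 2441, 2535 and 2429 RPKM in WT and 2214, 2892 and 2202 RPKM in P3MH (log2 change of -0.03, adjusted p by limma = 0.949).

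A pair of the higher genes belongs to methionine salvage, the pathway that returns the sulfur of methylthioadenosine to methionine. ARD, acireductone dioxygenase, had 1.24, 1.13 and 2.40 RPKM in WT and 8.51, 7 and 4.31 RPKM in P3MH, a log2 fold change of 1.55 (SE 0.29, adjusted p by limma = 0.00879). MTK1, methylthioribose kinase, had 7.63, 11.3 and 7.19 RPKM in WT and 14.2, 12.6 and 16.1 RPKM in P3MH, a log2 fold change of 0.68 (SE 0.17, adjusted p by limma = 0.0445). The groups did not overlap for either gene, although WT 2 came close to P3MH 2 for MTK1. MSRB1, a methionine sulfoxide reductase that repairs oxidised methionine in proteins, was at 0 in the 3 WT libraries and at 2.02, 3.81 and 2.40 RPKM in P3MH. Against a floor of 3 reads per WT library this is at least 8.46-fold higher (limma adjusted p = 0.000424).

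Protein folding and stress regulation supplied 2 of the higher genes with checked names. HSFA2C, a heat shock transcription factor, had 3.70, 3.36 and 3.06 RPKM in WT and 7.52, 7.90 and 7.51 RPKM in P3MH, a log2 fold change of 0.99 (SE 0.19, adjusted p by limma = 0.00847). DJA6, a DnaJ co-chaperone, had 86.3, 53.3 and 43.9 RPKM in WT and 102, 149 and 125 RPKM in P3MH, a log2 fold change of 1.06 (SE 0.24, adjusted p by limma = 0.0249). HSP26.7, a small heat shock protein, went the other way, with 17.68, 13.8 and 13.1 RPKM in WT and 3.28, 8.05 and 4.05 RPKM in P3MH (log2 change of -1.44 with SE 0.25, adjusted p by limma = 0.0045). Over the 14 tested heat shock loci 2 were called higher, against 1.67% of all loci as deposited and 2.42% rescaled, and 1 lower, against 3.1 and 2.09%. The median log2 fold change of the list was 0.11 as deposited and 0.24 rescaled. The other higher call, a member with no checked name, had 168, 174 and 196 RPKM in WT and 384, 454 and 639 RPKM in P3MH (limma adjusted p = 0.0184), and it was lost without P3MH 2, P3MH 3 or any of the WT libraries (adjusted p 0.0553 to 0.0747). HSP101, a disaggregase, had 23.4, 20.6 and 17.0 RPKM in WT and 19.0, 31.9 and 20.1 RPKM in P3MH, and the groups overlapped.

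Enzymes of turnover and nitrogen recycling were also among the higher genes. CBP3, a serine carboxypeptidase, had 22.6, 20.4 and 16.3 RPKM in WT and 37.8, 41.6 and 39.4 RPKM in P3MH, a log2 fold change of 0.98 (SE 0.14, adjusted p by limma = 0.00117). AAH, the allantoate amidohydrolase of purine breakdown, averaged 23.7 RPKM in WT and 41.0 RPKM in P3MH (log2 fold change 0.79). D2HGDH, a D-2-hydroxyglutarate dehydrogenase, averaged 34.7 and 56.6 RPKM (0.69). HO1, a heme oxygenase, averaged 14.3 and 30.9 RPKM (0.98), with 46.5 RPKM in P3MH 2 against 27.2 and 19.1 in the other P3MH libraries. GSTZ5, a zeta-class glutathione transferase, averaged 9.26 and 20.4 RPKM (1.09).

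The remaining higher genes act in signalling, RNA processing, development and the cell wall. CIPK14 and CIPK15, kinases of the calcium-sensing CBL network that are close copies in a duplicated block of chromosomes 11 and 12, averaged 8.11 and 4.70 RPKM in WT and 12.5 and 8.44 RPKM in P3MH. RSZ23, an SR protein of splicing, had 25, 24 and 26.4 RPKM in WT and 36.1, 34.7 and 36.1 RPKM in P3MH (log2 change of 0.49, adjusted p by limma = 0.0347). SHAT1, an AP2 transcription factor of seed shattering, averaged 4.89 and 10.6 RPKM. BC1L6, a COBRA-like protein of the cell wall, had 5.54, 3.86 and 3.83 RPKM in WT and 20.3, 15.4 and 17.3 RPKM in P3MH (log2 change of 1.79 with SE 0.42, adjusted p by limma = 0.0426). GER2, a germin-like protein, had 0.312, 0.426 and 0 RPKM in WT and 3.61, 4.04 and 2.59 RPKM in P3MH, beside its copy GER3 at 2705 RPKM in WT and 3369 RPKM in P3MH. Copies of this kind can share reads, and the part of that in the GER2 value was not tested.

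The 11 genes called higher only after rescaling were RASI, an inhibitor of alpha-amylase and subtilisin, ADF11, ABCG45, LEA17, CPK7, CPK13, TULP14, SAP16, MPK17, GT43E and ARF16. RASI had 187, 137 and 118 RPKM in WT and 248, 426 and 319 RPKM in P3MH, with a log2 fold change of 1.15 (limma adjusted p = 0.0584) as deposited and 1.29 (0.0497) rescaled. For all 11 the log2 fold change was already above 0 as deposited, between 0.40 and 1.15.

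**Figure D3:**
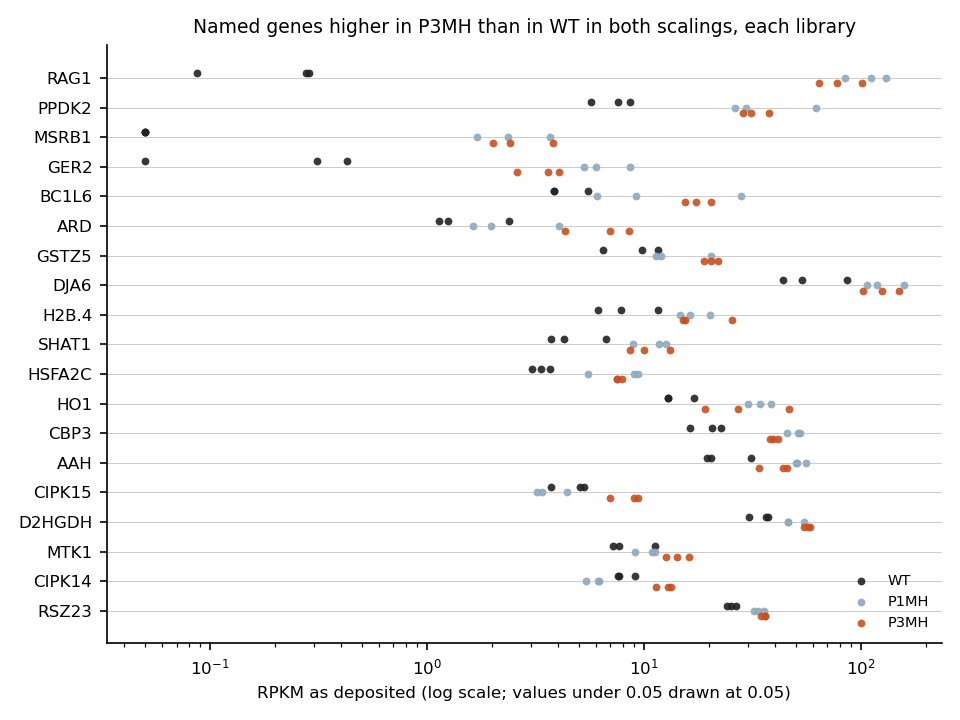
RPKM as deposited (horizontal, log scale, values under 0.05 drawn at 0.05) in each library for the 19 named genes called higher in P3MH in both scalings. WT is black, P1MH pale blue and P3MH orange; RAG1 runs from under 0.3 RPKM in WT to between 64 and 101.1 RPKM in P3MH.

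The 37 genes with a checked name that were called lower as deposited included enzymes of sugar metabolism, redox enzymes, cell wall and membrane proteins and regulators. Of these, 9 stayed called whichever of the 6 libraries was left out: FOR1, HSP26.7, TPI, TIFY2B, MKB3, UAM3, LTP2-B, H2B.3 and PRXIIC. Calls lost numbered 17 without P3MH 1, 24 without P3MH 2, 12 without P3MH 3, 23 without WT 1, 24 without WT 2 and 26 without WT 3, with adjusted p up to 0.191.

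TPI, triosephosphate isomerase, which interconverts the triose phosphates of glycolysis, had 305, 278 and 306 RPKM in WT and 169, 104 and 118 RPKM in P3MH. The means were 297 ± 15.7 and 130 ± 34.1 RPKM (SD, n = 3), a log2 fold change of -1.21 (SE 0.20, adjusted p by limma = 0.00352 as deposited and 0.00755 rescaled). CFBP1, the cytosolic fructose-1,6-bisphosphatase of sucrose synthesis, averaged 14.7 RPKM in WT and 8.23 RPKM in P3MH (log2 change of -0.78, adjusted p by limma = 0.0122). Enzymes that make sugar nucleotides for the cell wall fell too. UAM3, a UDP-arabinopyranose mutase, had 13.6, 13.1 and 14.1 RPKM in WT and 7.20, 5.83 and 5.75 RPKM in P3MH (log2 change of -1.02, adjusted p by limma = 0.000923). UGD4, a UDP-glucose dehydrogenase, averaged 8.53 and 4.54 RPKM (-0.78).

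PRXIIC, a peroxiredoxin, had 66.1, 66.2 and 69.4 RPKM in WT and 39.0, 44.9 and 42.6 RPKM in P3MH, a log2 fold change of -0.66 (SE 0.12, adjusted p by limma = 0.00772 as deposited and 0.035 rescaled). APX6, an ascorbate peroxidase, and GRXS10, a glutaredoxin, fell as deposited, from 30.1 to 18.8 RPKM and from 20.6 to 12.9 RPKM, and missed the threshold after rescaling (limma adjusted p = 0.0718 and 0.0536). The redox and fermentation list, which holds other genes, had 0 of 11 tested members called in either scaling. Its most abundant named members were PDC2, a pyruvate decarboxylase, at 182, 187 and 170 RPKM in WT and 239, 223 and 202 RPKM in P3MH, and MT2b, a metallothionein, at 158, 172 and 128 RPKM in WT and 79.6, 132 and 109 RPKM in P3MH.

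At the membrane and cell surface, LTP2-B, a lipid transfer protein, had 72.7, 73.3 and 74.2 RPKM in WT and 34.8, 30.5 and 44.2 RPKM in P3MH. The WT libraries lay close together, and the log2 fold change came to -1.01 (SE 0.15, adjusted p by limma = 0.0011). PIP1-1, an aquaporin, had 171, 193 and 187 RPKM in WT and 96.2, 95.5 and 124 RPKM in P3MH, a log2 fold change of -0.81 that passed as deposited (limma adjusted p = 0.02) and not rescaled (0.0634). CAX1a, a cation/proton exchanger, averaged 12.4 and 6.41 RPKM (-0.90), and BGLU7, a beta-glucosidase, 23.2 and 12.3 RPKM (-0.87).

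Regulators among the lower genes included TF1, an HD-ZIP class IV transcription factor, with 10.5, 11.3 and 13.6 RPKM in WT and 2.87, 3.07 and 4.60 RPKM in P3MH (log2 change of -1.52 with SE 0.32, adjusted p by limma = 0.0178). FOR1, a leucine-rich repeat protein that regulates floral organ number, had 3.63, 2.29 and 2.42 RPKM in WT and 0.212, 0.340 and 0.279 RPKM in P3MH (log2 change of -1.55 with SE 0.21, adjusted p by limma = 0.000782). These were 86 reads in WT against 8 in P3MH, a ratio of 0.0999 (95% interval 0.0418 to 0.206). TIFY2B, a TIFY-domain protein, had 15.1, 15.3 and 14.3 RPKM in WT and 7.35, 6.81 and 5.06 RPKM in P3MH. HOX2, an HD-ZIP protein, averaged 4.91 and 2.32 RPKM, DOS, a zinc finger protein that delays leaf senescence, 20.5 and 11.1 RPKM, and PP2A3, a catalytic subunit of protein phosphatase 2A, 16.7 and 8.33 RPKM.

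The cytoskeleton genes TUB6, a beta-tubulin, and ADF7, an actin depolymerizing factor, fell from 11.4 to 6.82 RPKM and from 27.4 to 15.9 RPKM. Neighbouring histone genes went in opposite directions: H2B.3 had 25.5, 24.5 and 28.0 RPKM in WT and 16.8, 12.4 and 12.7 RPKM in P3MH, while H2B.4 had 11.6, 7.82 and 6.10 RPKM in WT and 25.4, 15.4 and 15.1 RPKM in P3MH. The log2 fold changes were -0.87 (limma adjusted p = 0.00401) and 1.05 (0.0245), and the call of H2B.4 was lost without P3MH 1, WT 2 or WT 3 (adjusted p up to 0.107). They are close copies on chromosome 1, and how reads were shared between them was not tested. MKB3 averaged 3.39 RPKM in WT and 1.16 RPKM in P3MH (log2 fold change -1.04).

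Lower only as deposited were 18 of the 37: APX6, GRXS10, PIP1-1, Pi21, PSK5, PAS2A, CDKA2, P5CS2, GDH2, IRL6, CPK18, CPK28, APRL4, BRI1, SDH2-1, NF-YB1, RBCS-C and PCNA. Among them GDH2, a glutamate dehydrogenase, had 46.2, 41.3 and 34.7 RPKM in WT and 15, 13 and 33.4 RPKM in P3MH, with P3MH 3 close to WT 3. BRI1, the brassinosteroid receptor, averaged 12.2 and 7.63 RPKM, P5CS2, an enzyme of proline synthesis, 3.27 and 1.48 RPKM, and PSK5, a phytosulfokine precursor, 22.5 and 12.6 RPKM.

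**Figure D4:**
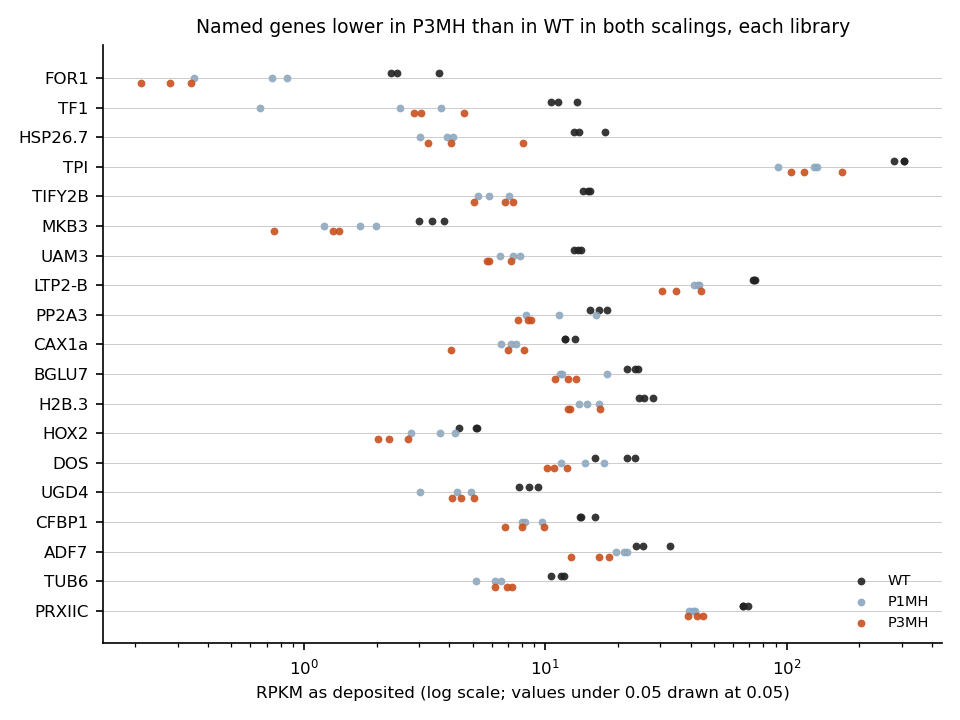
RPKM as deposited (horizontal, log scale) in each library for the 19 named genes called lower in P3MH in both scalings, with WT in black, P1MH in pale blue and P3MH in orange. TPI sits between 278 and 306 RPKM in WT and between 104 and 169 RPKM in P3MH.

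The widest gaps between the genotypes belonged to loci with no checked name. By the rule for named genes, the 15 loci of largest fold change were taken in each direction among those called in both scalings, and RAG1 was the only one of them with a name. LOC_Os08g15276 (chromosome 8, 9265773 to 9266144) had 92.9, 113 and 117 RPKM in WT and 0 in each P3MH library, at least 88.2-fold lower against a floor of 3 reads per P3MH library. LOC_Os04g16828 (chromosome 4, 9157268 to 9157639) had 86.4, 106 and 110 RPKM in WT and 0 in each P3MH library, at least 82.4-fold lower. LOC_Os11g01170 (chromosome 11, 100824 to 104177) had 0, 0 and 0.510 RPKM in WT and 38.4, 44.8 and 31.6 RPKM in P3MH. LOC_Os09g15044 (chromosome 9, 9087462 to 9088467) was at 0 in WT and at 20.2, 20.3 and 22.9 RPKM in P3MH, at least 50.5-fold higher. In P1MH both lower loci were at 0 and the higher ones averaged 31.2 and 17.91 RPKM. The lower loci have spans of equal length and WT values that rise together. If they are copies they can share reads, and the part of that was not tested.

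Such loci could be counted. At 0 in all 3 P3MH libraries and above 0 in all 3 WT libraries were 65 loci, with WT means from 1.43 to 108 RPKM and a median of 6.34, and 56 of them were called. The part in these zeros of a different way of counting reads in WT, where 23.2 to 25.4% of low values lay midway between whole reads, was not tested. P1MH was also at 0 in all its libraries for 30 of the 65 and above 0 in all for 1. P1MH 3 did not go with the other P1MH libraries here: for 26 of the 65, P1MH 1 and P1MH 2 were above 0 and P1MH 3 was at 0 like P3MH. The opposite pattern, 0 in WT and above 0 in all P3MH libraries, held for 37 loci, with P3MH means from 1.19 to 39.5 RPKM and a median of 3.27, and P1MH was above 0 in all its libraries for 32 of them. For the other 5, P1MH 1 and P1MH 2 were at 0 like WT and P1MH 3 was above 0. Tested loci needed a mean of at least 1 RPKM over the 9 libraries. A locus at 0 in WT or P3MH and low in the other of these passed only with reads in P1MH. Part of these P1MH counts was therefore fixed by the filter. MSRB1 was the only locus of either set with a checked name. Among the 65, spans of equal length recur on several chromosomes. Loci that are copies can share reads, so the 65 may not be separate losses, and this was not tested.

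Called loci also lay close together on some chromosomes. Over windows of 25 neighbouring tested loci, the mean share of calls would give 1.19 per window, and 37.5% of windows held 0. The fullest window, on chromosome 4 from 9102551 to 9369158, held 13 called loci, 2 higher and 11 lower, and P1MH had 12 calls there. LOC_Os04g16828 lies in that window, and the part of reads shared between copies was not tested. A window on chromosome 1 from 2434793 to 2803742 held 11, 5 higher and 6 lower, TPI, H2B.3 and H2B.4 among them, and P1MH again had 12. On chromosome 12 from 616624 to 898452, 8 loci were called, 1 higher and 7 lower, with CIPK14 and LTP2-B among them, and P1MH had 4 calls. After rescaling these windows held 14, 10 and 5 calls in turn. A fuller window of chromosome 12, from 12845190 to 14757989, held 9 calls in either scaling. By chromosome the share called as deposited ran from 2.96% on chromosome 3 to 7.54% on chromosome 12, with 7.32% on chromosome 11. Rescaled, it was 2.74% on chromosome 3, 6.86% on chromosome 12 and 7.44% on chromosome 11. Of the 24 tested loci around RBP-P, 12 on each side, 2 were called in P3MH, where 4.77% of all loci were. In P1MH 2 other loci were called, where 8.81% of all loci were. After rescaling 1 of the 2 in P3MH was no longer called and 1 other of the 24 was called higher, where 4.51% of all loci were called.

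The gene lists differed in their median change. That of the cell cycle and DNA replication genes was lowest. All 20 tested members had a log2 fold change below 0 in either scaling, and the median was -0.51 as deposited and -0.40 rescaled, against -0.13 and -0.01 for all tested loci. Few passed the test: 2 of 20 were called lower as deposited, against 3.1% of all loci, and 0 after rescaling. As deposited, the P3MH libraries lay below all WT libraries in 13 of the 20, where 20.6% of all tested loci did. After rescaling 11.9% of all tested loci did, and the members were not counted. In P1MH the median of the list was -0.62 as deposited.

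PCNA, the sliding clamp of DNA replication, had 13.5, 13 and 16.5 RPKM in WT and 9.50, 8.97 and 8.23 RPKM in P3MH, a log2 fold change of -0.63 (SE 0.16, adjusted p by limma = 0.0425 as deposited and 0.0958 rescaled). CDKA2, a cyclin-dependent kinase, had 3.01, 3.2 and 3.52 RPKM in WT and 1.46, 1.2505 and 1.54 RPKM in P3MH (log2 change of -0.81, adjusted p by limma = 0.0464 and 0.08). The replicative helicase subunits MCM2, MCM3, MCM4, MCM5 and MCM7 had log2 fold changes from -0.62 to -0.47 as deposited and none was called. MCM3 had 8.23, 9.92 and 14.2 RPKM in WT and 6.17, 6.6 and 7.33 RPKM in P3MH. As deposited, the groups stood apart for all these genes except MCM2, where WT 1 at 6.68 RPKM lay under P3MH 1 at 6.91 RPKM. The calls of PCNA and CDKA2 were lost with any of the 6 libraries left out (adjusted p 0.0714 to 0.183). KRP1, an inhibitor of cyclin-dependent kinases, had 9.04, 9.22 and 8.92 RPKM in WT and 8.65, 7.30 and 7.49 RPKM in P3MH.

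The median of the embryo and aleurone list was highest. All 11 tested members had a log2 fold change above 0 in either scaling, with a median of 0.51 as deposited and 0.62 rescaled, and 1 was called higher and 0 lower in either. The called member, a locus with no checked name, had 18.5, 12.4 and 10.1 RPKM in WT and 29.3, 57.9 and 22.6 RPKM in P3MH (log2 change of 1.29, adjusted p by limma = 0.0374). Its call was lost without P3MH 1, P3MH 2, WT 2 or WT 3 (adjusted p 0.0651 to 0.148). As deposited, the P3MH libraries lay above all WT libraries in 5 of the 11, where 6.97% of all tested loci did. P3MH 2 was highest for several members and WT 1 highest among WT. LEA3, a late embryogenesis abundant protein, had 156, 68.1 and 53.5 RPKM in WT and 96.6, 263 and 111 RPKM in P3MH, and OLE18, an oil body oleosin, had 358, 358 and 301 RPKM in WT and 476, 382 and 362 RPKM in P3MH. Relative to all tested loci the median of the list was 1.07 without P3MH 1 and 0.42 without P3MH 2. The summed level of the aleurone markers, which belong to the list, was 69.3 to 114 RPKM in WT and 124 to 183 RPKM in P3MH, and that of the embryo markers 558 to 763 and 721 to 856 RPKM. The part of a different amount of these tissues was not tested.

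Photosynthesis genes, which are active in the green pericarp of the young seed, had a median of -0.27 as deposited and -0.14 rescaled over 22 tested members. As deposited 0 were called higher and 2 lower, where 3.1% of all loci were called lower, and 0 in either direction rescaled. RBCS-C, a small subunit of Rubisco, had 13.1, 12.3 and 13.1 RPKM in WT and 8.64, 8.38 and 6.65 RPKM in P3MH (limma adjusted p = 0.0405 as deposited and 0.114 rescaled). The call was lost with any of the 6 libraries left out (adjusted p 0.0596 to 0.135). The chlorophyll-binding proteins CAB1R and CAB2R had log2 fold changes of -0.20 and -0.10 and overlapping groups. Pericarp markers summed to 397 to 483 RPKM in WT and 335 to 464 RPKM in P3MH.

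Starch is the other main product of the endosperm, and the genes of its synthesis had a median close to that of all loci. Of 30 tested members 0 were called higher and 1 lower in either scaling, and the median was -0.13 as deposited and 0.01 rescaled. BEI, a starch branching enzyme, had 2570, 2240 and 2150 RPKM in WT and 2522, 2478 and 2272 RPKM in P3MH. AGPS2, a small subunit of ADP-glucose pyrophosphorylase, had 1774, 1608 and 1462 RPKM in WT and 1667, 1660 and 1611 RPKM in P3MH. The groups overlapped for both genes. The member called lower, with no checked name, averaged 21.4 RPKM in WT and 11.6 RPKM in P3MH. In the sucrose and carbon supply list 1 of 16 was called higher, PPDK2, and 0 lower, and SUS4, a sucrose synthase, had 326, 363 and 317 RPKM in WT and 415, 458 and 456 RPKM in P3MH (log2 change of 0.40, adjusted p by limma = 0.194).

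Protein folding in the endoplasmic reticulum, where storage proteins are made, had 0 of 13 members called higher and 1 lower as deposited, and 0 rescaled. BiP1, the main chaperone of that compartment, had 1575, 1775 and 1893 RPKM in WT and 1649, 2587 and 1429 RPKM in P3MH. PDIL1-1, a protein disulfide isomerase, had 2366, 2408 and 2370 RPKM in WT and 2607, 3170 and 1906 RPKM in P3MH. P3MH 2 was the highest and P3MH 3 the lowest library for both. Of the 11 tested RBP-P partners and trafficking genes 0 were called in either scaling. VPE1, the vacuolar enzyme that cuts proglutelin, had 141, 127 and 112 RPKM in WT and 128, 146 and 130 RPKM in P3MH, and GBP 28.1, 29.1 and 30.3 RPKM in WT and 39.3, 38.7 and 32.2 RPKM in P3MH (log2 change of 0.32, adjusted p by limma = 0.18).

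Among 13 tested endosperm transcription factors, NF-YB1, a nuclear factor Y subunit of the endosperm, had 216, 187 and 188 RPKM in WT and 141, 139 and 111 RPKM in P3MH. Its log2 fold change came to -0.60 (SE 0.16, adjusted p by limma = 0.0464 as deposited and 0.133 rescaled), and the call was lost with any of the 6 libraries left out (adjusted p up to 0.152). It was the only member called as deposited. After rescaling 1 unnamed member was called higher in its place, with a mean of 276 RPKM in WT and 455 RPKM in P3MH. FIE, a Polycomb gene, had 31.8, 27.6 and 30.3 RPKM in WT and 23.5, 24.7 and 23.0 RPKM in P3MH, and was not called (limma adjusted p = 0.185). Its groups did not overlap as deposited but did after rescaling.

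In 5 further lists no member was called in either scaling: abscisic acid and gibberellin (8 tested), circadian clock (11), alpha-amylases (2 of 7), nitrogen and amino acids (14) and housekeeping (5). ABA8OX2, which breaks down abscisic acid, had 14.0, 9.95 and 8.54 RPKM in WT and 7.72, 6.98 and 7.95 RPKM in P3MH, and ZEP, which makes its precursor, averaged 5.52 and 4.64 RPKM. The clock genes PRR95 and OsPRR73 averaged 76.2 and 61.0 RPKM in WT and 74.6 and 53.6 RPKM in P3MH. The alpha-amylases differed in sign and neither was called: RAmy3E had 43.0, 32.9 and 26.6 RPKM in WT and 14.6, 23.6 and 21.2 RPKM in P3MH (limma adjusted p = 0.0567), and AMY2A 1.40, 0.437 and 1.35 RPKM in WT and 3.11, 3.32 and 2.32 RPKM in P3MH (0.0688). P5CS1 and GLN1-1, of proline and glutamine synthesis, averaged 53.0 and 30.5 RPKM in WT and 53.9 and 26.67 RPKM in P3MH. The housekeeping median was -0.24 as deposited and -0.11 rescaled.

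**Figure D5:**
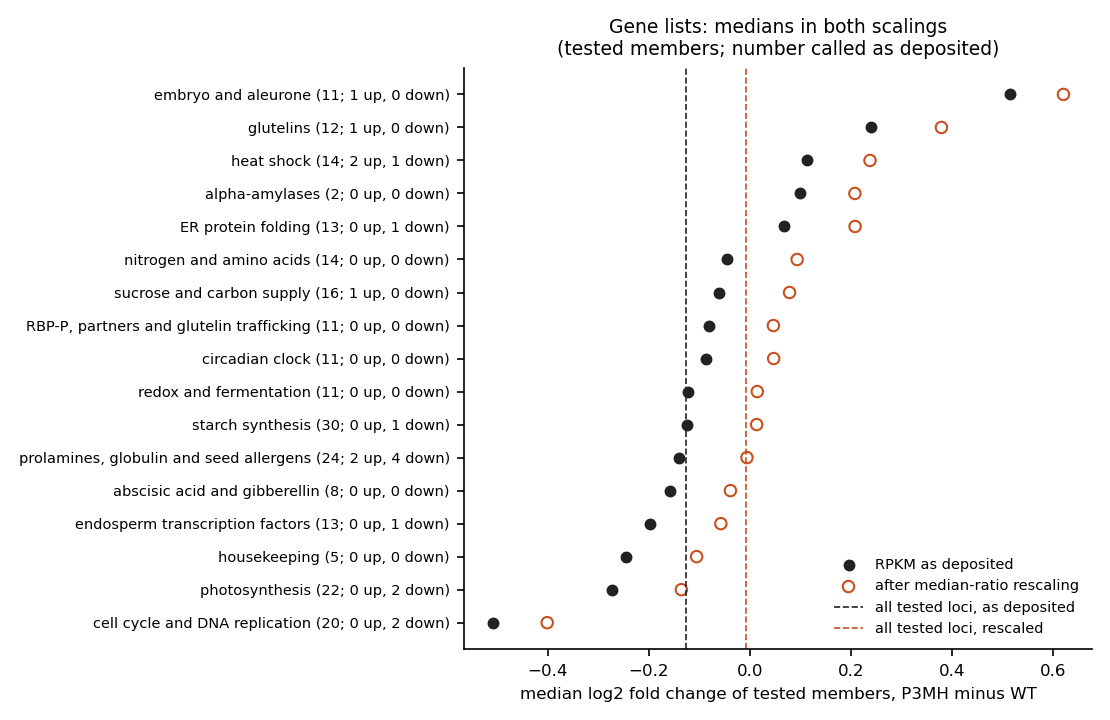
Median log2 fold change of P3MH against WT (horizontal) for the tested members of each gene list, filled as deposited and open after rescaling, with dashed lines for the medians of all tested loci. The list of embryo and aleurone genes is highest at 0.51 and 0.62 and the cell cycle list lowest at -0.51 and -0.40.

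The G401S line P1MH was set against the same WT libraries, so its changes and those of P3MH share their controls and are given side by side only. limma called 1416 loci in P1MH (8.81% of those tested). Of the loci called in P3MH, 188 higher and 296 lower were called the same way in P1MH, 282 were not called there, and 10 had a P1MH fold change of the other sign. The direct test of P3MH against P1MH called 5 loci (0.0311%), of which 4 were also called against WT, while 2054 had an unadjusted p under 0.05. That count moved when P1MH 3, chosen after seeing the data, was left out. The direct test then called 238 loci (1.48%), 103 higher and 135 lower in P3MH, and 132 of them were also called against WT in the same fit. No fit left out P1MH 1 or P1MH 2, so whether the count moves as much without them was not tested. Without P1MH 3, limma called 1036 loci in P1MH against WT (6.45%) and 896 in P3MH against WT, 317 higher and 579 lower. Of these 896, 454 were also called in P1MH, where with all 9 libraries 484 of 766 were. Mean log2 fold changes against WT were 6.05 in P3MH and 6.47 in P1MH for RAG1, 2.02 and 2.20 for PPDK2, and 1.55 and 0.43 for ARD. The direct test with all 9 libraries called none of these genes.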

How the data were processed

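The authors deposited RPKM values for 55986 loci in 9 libraries, per the file headers, and gave each locus a position but no gene name. Per the labels' protocols, a ScriptSeq v2 kit turned total RNA into libraries. Not given in the sources used here are the genome build, the aligner and the tool that counted reads. All value columns matched a library by name and 0 were left unused.

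From these, log2(RPKM + 1) was fitted with limma 3.58.1 (R 4.3.3) (trend and robust moderation on) for loci with a mean of at least 1 RPKM. A model with 1 term for each genotype was fitted to the 9 libraries together, with Benjamini-Hochberg adjustment over all tested loci at a false discovery rate of 0.05. A locus below that rate is said to be called. Fold changes on this scale understate the change of low loci. The same fit was run after median-ratio rescaling. Residual variance relative to its mean was 0.662 in WT and 1.07 in P3MH. P-values measure the spread between the repeats of all genotypes, P1MH among them. Library totals were recovered from the steps of low values, as the smallest total that put enough of them on whole reads. Intervals take these totals as given and cover counting error only. Tables and plots were made with Python 3.11.15, numpy 2.4.6, pandas 2.3.3, scipy 1.17.1 and matplotlib 3.10.9, and the fit was tested on simulated data.

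Gene symbols were taken from RefSeq's table for assembly ASM3414082v1. A locus took the name of a gene whose span was 0.8 to 1.25 times its own and whose neighbours on the chromosome had like spans. This matched 16269 loci, of which 1992 had a name, and of 108 list loci matched to a named gene 90 carried the name the list gave.

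Lists were described by counts and medians, with no test. The genes named are RBP-P, called list members and the 2 most abundant named members of each list, the 15 loci of largest fold change in each direction, and every other called locus with a name, chosen after its values were seen. The members and lists were chosen with earlier results of these data known. The alternatives tried were a replicate block, other scalings, filters, a pseudocount of 0.1, limma without trend, fewer libraries and leaving out each WT or P3MH library or, chosen after seeing the data, P1MH 3.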

Additional observations from a re-analysis of the deposited data

Results flagged for a closer look

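In 4 loci called against WT, the P3MH and P1MH libraries also differed in the direct limma test between the mutant lines, adjusted over all 16064 loci. The identifiers are given because of this result, after their values were seen. LOC_Os01g16140 (chromosome 1, 9114002 to 9114253) had 9.90, 7.94 and 7 RPKM in WT, 9.47, 9.83 and 8.52 RPKM in P1MH and 28.2, 32.1 and 22.6 RPKM in P3MH. It was higher in P3MH than in P1MH by 1.47 on the log2 scale (limma adjusted p = 0.0117) and than in WT by 1.62 (4.1e-05). The locus lies 47.2 kilobases and 5 tested loci from RBP-P.

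CIPK14 was 0.97 higher on the log2 scale in P3MH than in P1MH (limma adjusted p = 0.0421). It had 7.55, 7.65 and 9.12 RPKM in WT, 6.13, 6.19 and 5.38 RPKM in P1MH and 11.4, 12.9 and 13.3 RPKM in P3MH, so the mutant lines lay on opposite sides of WT. Its call against WT was lost with any of the 6 libraries left out (adjusted p 0.0531 to 0.149).

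LOC_Os06g07960 (chromosome 6, 3823413 to 3827346) had 2.06, 1.64 and 0.611 RPKM in WT, 4.92, 2.57 and 2.65 RPKM in P1MH and 0 in each P3MH library, a difference between the mutant lines of -2.09 (limma adjusted p = 0.0279). Against WT its call was lost without P3MH 1, P3MH 2, WT 1 or WT 2 (adjusted p 0.0533 to 0.0900). With P3MH at 0 and WT this low, LOC_Os06g07960 passed the filter on mean RPKM only through its P1MH values. LOC_Os12g28015 (chromosome 12, 16519711 to 16520331) had 25.3, 19.2 and 15.1 RPKM in WT, 25.5, 18.7 and 10.4 RPKM in P1MH and 2.24, 0.531 and 2.18 RPKM in P3MH, a difference of -2.85 (limma adjusted p = 0.0363).

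All 4 were still called in the direct test without P1MH 3, which stood apart from the other P1MH libraries (limma adjusted p 0.000249 to 0.012), and that test called 238 loci in place of 5.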

How the results depend on the processing

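As deposited, 268 loci were called higher and 498 lower. A filter at a mean of 5 RPKM, which left 9047 loci, gave 155 and 281. Quantile normalization gave 322 lower, and the WT and P3MH libraries alone with rescaling 467 higher. Leaving out P1MH 3, chosen after seeing the data, gave 317 higher and 579 lower, with rescaling 435 and 395. Replicate numbers do not pair the libraries (correlations of same-numbered deviations -0.16, -0.04 and 0.11), and a fit with a replicate block called 239 higher and 411 lower, with rescaling 299 and 277. With 1 WT or P3MH library left out the counts ran from 128 to 273 higher and 237 to 402 lower as deposited, and from 160 to 389 and 173 to 273 rescaled. Of 218 genes and loci followed, 98 were called as deposited and 0 of these changed sign in 26 alternatives, while 46 of the 120 not called did so.

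List medians relative to all tested loci moved by more than the spread between repeats in these cases. Starch synthesis was at -0.062 without a filter and -0.063 under quantile normalization, sucrose supply at -0.063 and the prolamine list at 0.16 under quantile normalization, glutelins at 0.30 and the trafficking list at -0.018 without a filter, and the alpha-amylases at -0.65 with the filter at 5 RPKM and 0.51 with a pseudocount of 0.1. With 1 WT or P3MH library left out, over both scalings, the relative median ran from -0.046 to 0.097 for starch synthesis, 0.31 to 0.46 for glutelins, -0.076 to 0.12 for the trafficking list, -0.46 to -0.26 for the cell cycle list, -0.11 to 0.078 for abscisic acid and gibberellin, and -0.098 to 0.064 for the redox list. At the depths worked out here, loci of 1 kilobase under 0.40 to 0.51 RPKM rest on under 3 reads.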
